A study of Mus musculus with 5 samples.

Results

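The genes described here encode the proteins of the mitochondrial ribosome, chosen by symbol: every gene named Mrpl or Mrps followed by a number that had a probe set with a single gene symbol. This gave 76 of the 18193 genes measured, 47 with a large-subunit symbol (Mrpl) and 29 with a small-subunit symbol (Mrps). A probe set is the group of short array probes that reads a given transcript, and where a gene had several the brightest on average over the 3 treatments was used. A RefSeq gene table lists 78 protein-coding genes with such symbols, and the 2 not measured, Mrpl30 and Mrpl53, lie on probe sets that carry several symbols.

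The mitochondrial ribosome translates the few messages of the mitochondrial genome, all of which code for subunits of the respiratory chain and ATP synthase. Its RNA is made inside the organelle, whereas its proteins are coded by nuclear genes, made in the cytosol and imported. Some descend from bacterial ribosomal proteins, and others, found only in mitochondria, cover the surface of the particle. The large subunit forms peptide bonds, and the small subunit binds the message and decodes it.

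RNA came from B9, a murine squamous skin carcinoma line of genotype HRAS-Q61L, an activating RAS change that every group shares. Cultures received 1 µM of the BRAF inhibitor vemurafenib (PLX4032) on 2 arrays, 1 µM of PLX7904, a BRAF inhibitor of another class, on 2 arrays, or the vehicle, given as 0.2% DMSO, on 1 array, each for 17 h. The volumes of stock and medium stated for the compounds correspond to a smaller share than the stated vehicle level, so whether treated and control cultures held the same amount of vehicle is not certain, and this bears on both comparisons with DMSO. The labels call the 2 arrays of a compound biological replicates without saying whether the cultures were separate experiments, so the spread behind the p-values is that of these arrays and may be technical. All groups come from a single cell line.

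Signals were deposited as MAS5 values on a linear scale, and the 5 arrays limit the precision. The median signal of an array over all probe sets lay between 44.1 and 51.9. Of 4 keratinocyte markers all were well above the filter described next (mean signals of 5180 for Trp63 to 21800 for Krt14). Of 3 melanocyte markers none passed it, and of 4 fibroblast, 3 immune and 3 endothelial markers 1 each did (Pdgfra, Cd68 and Pecam1, mean signals of 155, 98.7 and 48.4). Pdgfra was higher with vemurafenib than with DMSO (log2 1.53, adjusted p = 0.00327, limma), while the fibroblast collagens Col1a1, Col1a2 and Col3a1 had mean signals of 17.8 to 26.7, under the filter. Against PLX7904, Pdgfra was higher with vemurafenib too (log2 0.86, adjusted p = 0.0166, limma). Of the keratinocyte genes, Itga6 was higher with vemurafenib than with DMSO (0.48, adjusted p = 0.00117, limma) and than with PLX7904 (0.37, adjusted p = 0.00130, limma), and Krt5 was lower than with PLX7904 (-0.23, adjusted p = 0.0175, limma). Their part in the results on ribosomal genes was not tested.

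Differences are on the log2(signal + 3.34) scale and were tested with limma over the 10852 genes whose mean signal reached 47.4. A gene was called at a Benjamini-Hochberg adjusted p under 0.05. All 76 members passed the filter. Their mean signals ran from 417 to 8050 with a median of 2880, which exceeds 83.2% of the genes tested. Signals of different probe sets depend on their probes and do not rank the transcripts.

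The transcripts of the mitochondrial ribosome differed little between the treatments. The median signal over the 76 members was 2950 on the DMSO array, 2820 and 2840 on the vemurafenib arrays, and 2980 and 2900 on the PLX7904 arrays. The differences of single members reached from -0.35 to 0.37 on the log2 scale for vemurafenib against DMSO, from -0.19 to 0.33 for PLX7904 against DMSO, and from -0.31 to 0.23 for vemurafenib against PLX7904. In these comparisons 1, 0 and 5 members were called.

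**Figure D1:**
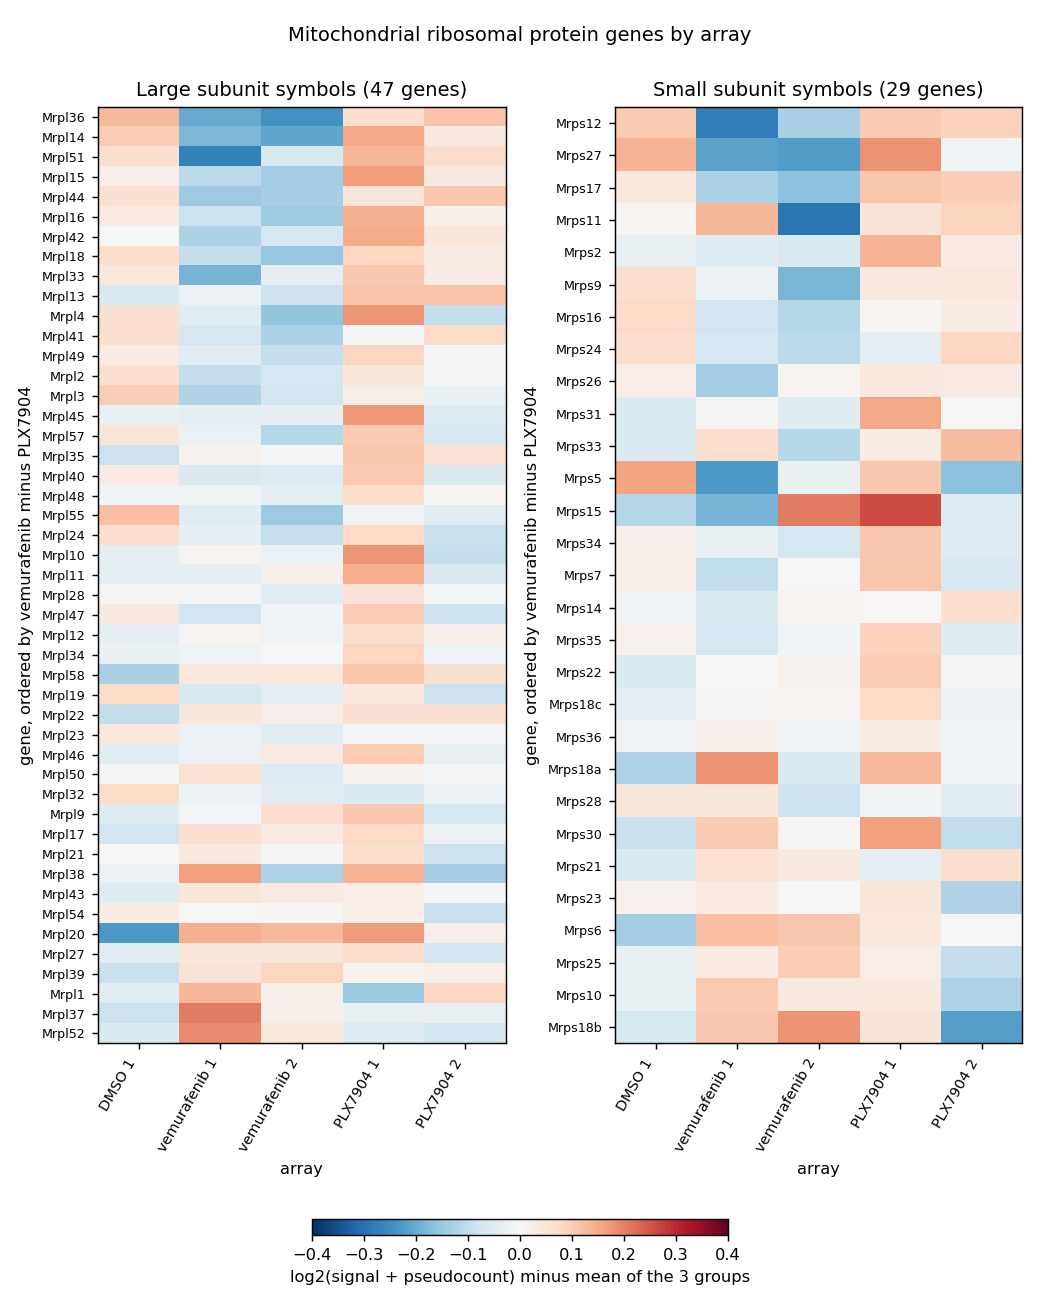
Colour gives log2(signal + pseudocount) of each member on each array minus the mean of the 3 group means, with large-subunit symbols on the left and small-subunit symbols on the right, ordered by the difference between vemurafenib and PLX7904. Mrpl36, Mrpl14 and Mrps12 are lower on both vemurafenib arrays, Mrpl20 is lower on the DMSO array, and most members are higher on the first PLX7904 array than on the second.

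The first comparison, vemurafenib against DMSO, asked what vemurafenib does to these genes in cells with mutant HRAS. A single member was called. Mrpl20, the counterpart of a bacterial protein that binds the large ribosomal RNA early in assembly, read 3844 with DMSO, 4973 and 4935 with vemurafenib, and 5079 and 4572 with PLX7904. The DMSO array was thus the low value, and the 4 treated arrays lay above it with the compounds overlapping. Mrpl20 rose 1.29-fold with vemurafenib (log2 0.37, 95% interval 0.17 to 0.56, adjusted p = 0.0267, limma, 2 arrays against 1). With PLX7904 it read 1.25-fold of DMSO and did not pass (log2 0.33, 0.13 to 0.52, adjusted p = 0.462). Both values rest on the same DMSO array. The difference between the compounds was 0.04 (-0.12 to 0.20). Without vemurafenib replicate 1 or 2 the call ended at nearly the same size (log2 0.36 with adjusted p = 0.0739, and 0.37 with 0.0552, limma with the lone array assumed to vary like the others).

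Called members made up 1.32% of the 76, while over all genes tested 10.6% were called in this comparison. Called as higher were 1.32% of members against 5.43% of all genes, and as lower 0 members against 5.21%, with 9 of 76 members at an unadjusted p under 0.05 beside 25.9% of all genes. In the top quartile of mean signal, which held 56 of the members, 17.1% of all genes were called. Both vemurafenib arrays lay below the DMSO array for 38 members and above it for 26, and over all genes tested these shares were 47.7% and 34.2%. The median over members was -0.02, beside -0.05 over all genes tested and 0.05 over the top quartile of signal. With each array centred on its median the members' median was 0.045, so its sign depends on the scaling.

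Members next to the threshold were of both subunits. Mrps6, of the small-subunit platform, read 5292 with DMSO, 6330 and 6270 with vemurafenib, and 5989 and 5822 with PLX7904. Its difference from DMSO did not pass with vemurafenib (log2 0.25, SE 0.08, adjusted p = 0.0625, limma). Mrpl36, a small zinc-binding protein, read 1617 with DMSO against 1283 and 1247 with vemurafenib (log2 -0.35, SE 0.10, adjusted p = 0.0547, limma). Mrps27, a small-subunit protein with pentatricopeptide repeats and among the dimmest members, had as low a value with a wider error (456 with DMSO, 357 and 354 with vemurafenib, log2 -0.35, SE 0.15, adjusted p = 0.180). Mrps6 and Mrpl36 passed under other settings, as when PLX7904 replicate 1 was left out of the common fit (adjusted p = 0.0317 and 0.0378). At the upper end stood also Mrps18b (log2 0.21, SE 0.12) and the mitochondria-specific Mrpl37 (0.20, SE 0.15), neither of which passed.

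The intervals bound how large a change these arrays allow for most members. For 69 of the 76 members, 90.8%, the unadjusted 95% interval of the vemurafenib difference lay wholly within 0.5 log2 units of 0, a factor of 1.41, and over all genes tested this held for 43.5%. The median interval of a member reached 0.21 to either side and that of all genes 0.31. For PLX7904 against DMSO 74 members, and for vemurafenib against PLX7904 also 74, had intervals within that bound, beside 57.8% and 55.0% of all genes. Intervals were narrower for bright genes. For vemurafenib against DMSO the median SE over all genes was 0.35 in the lowest quartile of signal, with 0 members, and 0.09 in the top quartile. That of the members was 0.10, and shares at matched signal were not computed.

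The second comparison, PLX7904 against DMSO, addressed the compound of the other class. With limma 0 of the 76 members were called, beside 0% of all genes, and 3 members had an unadjusted p under 0.05, beside 6.65% of all genes. Mrpl20 had the highest difference, given above. Mrpl58, a peptidyl-tRNA hydrolase built into the large subunit, read 3065 with DMSO, 3623 and 3498 with PLX7904, and 3453 and 3455 with vemurafenib (log2 0.22 for PLX7904, SE 0.09, adjusted p = 0.667). All 4 treated arrays lay above DMSO for Mrpl58. Mrps15, a small-subunit protein that binds the ribosomal RNA, had the same difference of 0.22 but spread widely within each compound (3160 with DMSO, 4102 and 3299 with PLX7904, 3005 and 3956 with vemurafenib, SE 0.16). Its groups overlapped.

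At the lower end with PLX7904 were Mrps5, near the entry of the message channel (log2 -0.19, SE 0.14), Mrpl55 (-0.15, SE 0.11), Mrpl32, which a mitochondrial protease must process before it is assembled (-0.11, SE 0.08), and Mrpl3, close to the peptidyl transferase centre (-0.10, SE 0.09). None of these passed. Both PLX7904 arrays lay above the DMSO array for 31 members and below it for 12, beside 30.8% and 35.7% of all genes tested, and the members' median was 0.02 beside -0.01 for all genes. Without PLX7904 replicate 1 that median was -0.011 and without replicate 2 it was 0.067, so the direction rests on which array is used.

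The third comparison, vemurafenib against PLX7904 at the same dose and time, tests the compounds directly and does not use the DMSO array. Here 5 members were lower with vemurafenib, 3 of the large and 2 of the small subunit, and 0 were higher, while 13.3% of all genes tested were called. At an unadjusted p under 0.05 were 15 of 76 members, beside 27.3% of all genes. This is 6.58% of members as lower, beside 6.87% of all genes tested, so the share of lower calls was near the background, while higher calls were 6.43% of all genes. In the top quartile of mean signal, where 56 of the members lie, 20.1% of all genes were called in either direction. Of the 5, 4 belong to families shared with bacteria (Mrps12, Mrps17, Mrpl14 and Mrpl36) and 1, Mrpl51, is specific to mitochondria.

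Mrps12, the protein of the decoding centre on which accurate reading of codons depends, read 2531 and 2804 with vemurafenib, 3295 and 3271 with PLX7904, and 3293 with DMSO. Both vemurafenib arrays lay below the other 3. It was 0.812 of its PLX7904 level (log2 -0.30, 95% interval -0.47 to -0.13, adjusted p = 0.0290, limma, 2 arrays against 2). Mrpl36 showed the same order, with 1283 and 1247 under vemurafenib against 1549 and 1600 under PLX7904 (log2 -0.31, -0.50 to -0.13, adjusted p = 0.0331, limma). Mrpl14, which sits at the face where the subunits join, read 1744 and 1710 against 2199 and 2027, with DMSO at 2116 (log2 -0.29, -0.47 to -0.11, adjusted p = 0.0422, limma).

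Mrps17, which binds the small ribosomal RNA, read 3757 and 3664 with vemurafenib and 4429 and 4390 with PLX7904, with DMSO at 4222 (log2 -0.25, 95% interval -0.40 to -0.10, adjusted p = 0.0335, limma). Mrpl51 read 5896 and 6797 with vemurafenib and 7796 and 7467 with PLX7904, with DMSO at 7431 (log2 -0.27, -0.44 to -0.10, adjusted p = 0.0410, limma). Its vemurafenib arrays were farther apart than those of the other called members. For all 5 genes both vemurafenib arrays also lay below the DMSO array, a difference that did not pass for any of them and that a second probe set of Mrpl51 turned around.

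These calls are close to the threshold. Without vemurafenib replicate 1 none of the 5 passed (Mrps12 log2 -0.23, Mrps17 -0.27, Mrpl14 -0.30, Mrpl36 -0.33, Mrpl51 -0.17), and without vemurafenib replicate 2 only Mrps12 (-0.38) and Mrpl51 (-0.37) did. Without PLX7904 replicate 1 only Mrpl36 of the 5 passed (-0.34) and without PLX7904 replicate 2 only Mrpl14 (-0.35). Without PLX7904 replicate 1, Mrps18b was called as higher (0.36, adjusted p = 0.0228), and without PLX7904 replicate 2, Mrpl15 (-0.29, adjusted p = 0.0412) and Mrpl42 were called as lower. With median centring the 5 values were -0.21 to -0.28 and none passed, nor did any in a fit whose prior variance did not follow intensity. Mrps12 was read by a probe set with the suffix s, which can match transcripts of several genes, and Mrps17, Mrpl51 and Mrpl20 by probe sets with the suffix a, for several transcripts of a gene. For Mrpl51 a dimmer probe set without suffix (mean signal 250, against 7140) read -0.19 in this comparison, with an adjusted p of 0.498 when suffixed probe sets were left out (limma). Against DMSO that probe set read 0.09, the other way from the brightest one, and a still dimmer one read -0.45.

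**Figure D2:**
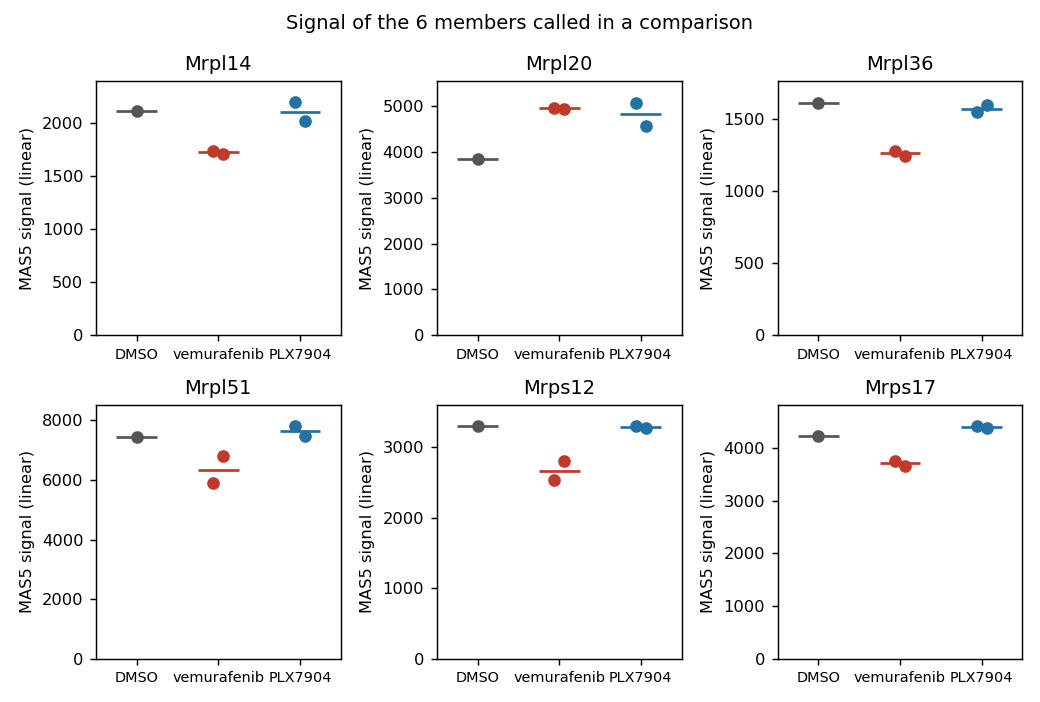
Points give the MAS5 signal on each array (linear axis from 0) for the 6 members called in a comparison, and lines the group means. Mrpl14, Mrpl36, Mrpl51, Mrps12 and Mrps17 are lowest on both vemurafenib arrays, and Mrpl20 is lowest on the DMSO array (3844).

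Across the 76 members, both vemurafenib arrays lay below both PLX7904 arrays for 30 (39.5%) and above them for 7 (9.21%). Over all genes tested the shares were 32.2% and 23.8%. The median difference was -0.06 beside -0.04 over all genes and 0.01 over the top quartile of signal. This shift moves with an array: PLX7904 replicate 1 read higher than replicate 2 for 61 of the 76 members, by a median of 0.09, while over all genes tested the median was 0.01. Without PLX7904 replicate 1 the members' median was -0.0019, with 37 members above 0 and 39 below, and without replicate 2 it was -0.099. Why that array reads higher was not tested.

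**Figure D3:**
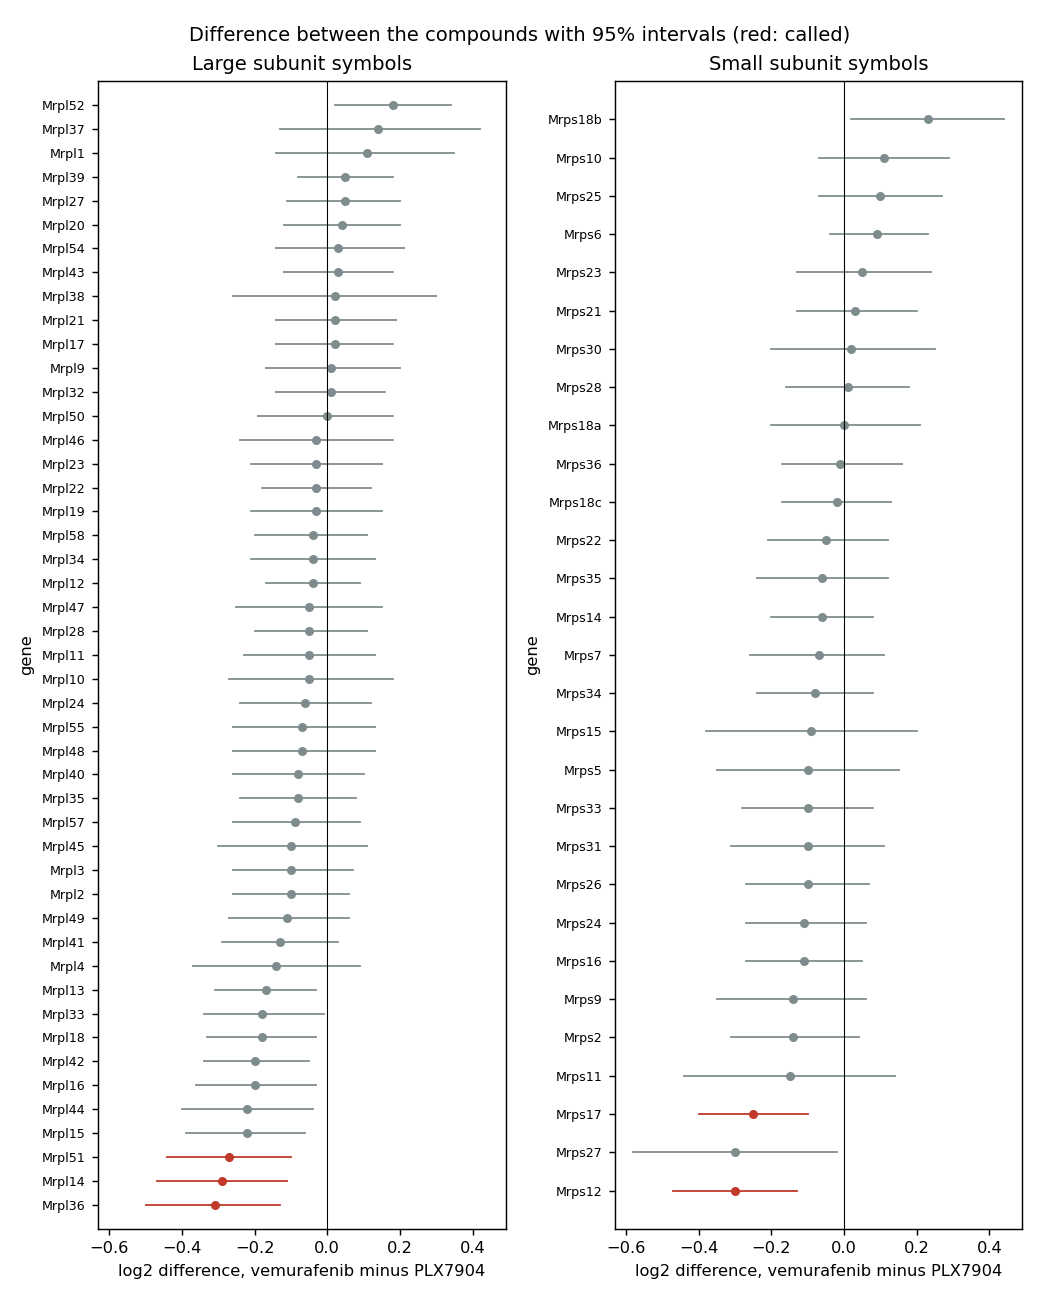
Points give the log2 difference between vemurafenib and PLX7904 for each member and lines its unadjusted 95% interval from limma, with the called members in red. The values run from -0.31 for Mrpl36 to 0.23 for Mrps18b, and 74 of the 76 intervals lie within 0.5 of 0, beside 55.0% over all genes tested.

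At the upper end of this comparison Mrps18b read 2837 and 2982 with vemurafenib and 2725 and 2259 with PLX7904 (log2 0.23, SE 0.10, adjusted p = 0.149, limma). Mrpl52, specific to mitochondria, read 5478 and 4951 against 4636 and 4567 (0.18, SE 0.07, adjusted p = 0.135, limma). On the probe sets used the groups did not overlap for either gene, and neither passed. Other probe sets of Mrpl52 past the filter read 0.01, -0.06 and 0.11 (mean signals of 2570, 2490 and 58.8). Mrps10 (0.11, SE 0.08) and Mrpl37 (0.14, SE 0.12) followed.

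Mrps18b belongs to a family in which mammals carry several copies of a single bacterial protein, so its relatives were compared. Mrps18c, the copy that keeps the bacterial place in the small subunit, read 5106 with DMSO, 5256 and 5278 with vemurafenib, and 5526 and 5156 with PLX7904 (log2 -0.02 between the compounds, SE 0.07). Mrps18a, which despite its symbol is built into the large subunit, read 2776 with DMSO, 3423 and 2908 with vemurafenib, and 3308 and 3000 with PLX7904 (0.00, SE 0.09). None of the 3 passed in any comparison. Of the 3, Mrps18b alone had vemurafenib and PLX7904 arrays that did not overlap, and the difference among the relatives was not tested.

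The large and the small subunit were then set against each other. For vemurafenib against DMSO the median was -0.03 over 47 large-subunit members (21 above 0) and -0.01 over 29 small-subunit members (13 above 0). For PLX7904 against DMSO the medians were 0.03 (29 above 0) and 0.01 (18 above 0), and between the compounds -0.05 (13 above 0) and -0.07 (9 above 0). The large minus small difference of these medians was thus -0.016, 0.018 and 0.023 in turn. Each changed sign under at least 1 setting or left-out array. The subunits' median levels, taken array by array, gave another picture for vemurafenib. Large-subunit members had a median signal of 3060 with DMSO, 2830 and 2880 with vemurafenib, and 3120 and 3010 with PLX7904. Small-subunit members had 2780, then 2810 and 2800, then 2840 and 2780. On the log2 scale the large minus small median level was 0.14 with DMSO, 0.01 and 0.04 with vemurafenib, and 0.13 and 0.12 with PLX7904, with an SD of 0.0171 between replicate arrays. The vemurafenib arrays were thus the low ones by this measure, which compares middle genes that need not be the same on each array, while the median of gene-wise differences showed no such gap.

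Placing Mrps30 and Mrps18a with the large subunit, where they sit in the mammalian particle, gave 0.0088, 0.020 and 0.030. Mrps30 itself read 1486 with DMSO, 1699 and 1585 with vemurafenib, and 1770 and 1476 with PLX7904 (log2 0.02 between the compounds, SE 0.10). Mrps36, which is now assigned to the 2-oxoglutarate dehydrogenase complex and not to the ribosome, was among the steadiest members (2555 with DMSO, 2616 and 2551 with vemurafenib, 2632 and 2559 with PLX7904).

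**Figure D4:**
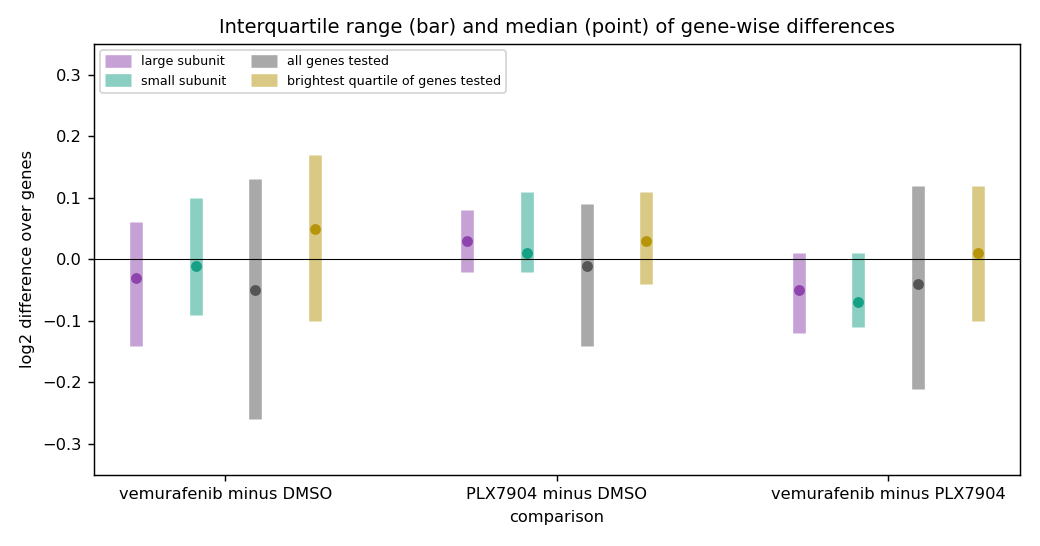
Bars give the interquartile range and points the median of gene-wise log2 differences for large-subunit members, small-subunit members, all genes tested and the top quartile of mean signal, in each comparison. The ranges of the subunits overlap in every comparison, and for vemurafenib against DMSO they run from -0.14 to 0.06 and from -0.09 to 0.10, beside -0.26 to 0.13 for all genes.

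The stalk of the large subunit recruits the factors that drive translation, and its members differed little between the compounds on the probe sets used. Mrpl12, the stalk protein and the brightest member, read 7830 with DMSO, 8107 and 7969 with vemurafenib, and 8411 and 8163 with PLX7904. Its difference between the compounds was -0.04 (95% interval -0.17 to 0.09). Mrpl10, which anchors it, read 1576 with DMSO, 1628 and 1589 with vemurafenib, and 1827 and 1510 with PLX7904 (-0.05, -0.27 to 0.18). Mrpl11, at the stalk base, differed by the same amount (-0.05, -0.23 to 0.13). Its other probe sets past the filter read -0.18, -0.16 and -1.11 (mean signals of 3260, 620 and 49.6). Mrpl39 and Mrps14, other bright members, differed by 0.05 (-0.08 to 0.18) and -0.06 (-0.20 to 0.08).

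By origin, 47 members belong to families shared with bacteria and 29 are specific to mitochondria. Between the compounds both had a median of -0.06, with 4 and 1 members called as lower. For vemurafenib against DMSO the medians were -0.06 and 0.00, and for PLX7904 against DMSO both were 0.02.

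Promoters were examined because the called members had shifted in 1 direction between the compounds. RefSeq promoter windows, from 250 bases before to 50 bases after the start site, were at hand for 67 of the 76 members. They were searched on both strands for 3 core motifs of factors known to drive nuclear genes of mitochondria: the core of the NRF1 site, CCGGAAG for ETS factors such as GABP, and AAGATGGC for YY1. The NRF1 core stood in 17.9% of members and 5.19% of 27025 genes with a window, the ETS core in 37.3% and 9.93%, and the YY1 core in 17.9% and 3.19%. At least 1 of the 3 was found in 41 members (61.2%, beside 16.4% of all genes with a window), 26 of 41 with a large-subunit and 15 of 26 with a small-subunit symbol. No member had an ETS and a YY1 match that shared letters. Of the 5 members lower with vemurafenib, 4 held a match, and no motif stood in all 4. Their windows are printed here 5′ to 3′ on the strand of the gene, with the matched letters in capitals (the ETS core in Mrpl51, the YY1 core, read on the other strand, in Mrps12 and Mrpl36, the ETS core also in Mrps12, and the NRF1 core in Mrpl14):
Mrpl51, GRCm38.p6 chr6:125191950-125192249, + strand: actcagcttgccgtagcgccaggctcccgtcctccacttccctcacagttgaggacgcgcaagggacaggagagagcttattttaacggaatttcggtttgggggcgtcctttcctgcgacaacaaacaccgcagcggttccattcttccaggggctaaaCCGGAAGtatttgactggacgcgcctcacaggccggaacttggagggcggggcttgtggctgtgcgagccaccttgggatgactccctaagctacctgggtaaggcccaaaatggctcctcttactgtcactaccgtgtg
Mrps12, GRCm38.p6 chr7:28741772-28742071, - strand: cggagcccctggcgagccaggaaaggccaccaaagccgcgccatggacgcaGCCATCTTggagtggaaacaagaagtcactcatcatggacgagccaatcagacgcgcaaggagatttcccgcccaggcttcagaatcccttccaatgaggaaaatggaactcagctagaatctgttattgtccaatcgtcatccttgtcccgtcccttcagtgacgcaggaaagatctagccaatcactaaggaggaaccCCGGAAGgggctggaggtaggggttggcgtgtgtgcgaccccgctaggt
Mrpl36, GRCm38.p6 chr13:73330759-73331058, + strand: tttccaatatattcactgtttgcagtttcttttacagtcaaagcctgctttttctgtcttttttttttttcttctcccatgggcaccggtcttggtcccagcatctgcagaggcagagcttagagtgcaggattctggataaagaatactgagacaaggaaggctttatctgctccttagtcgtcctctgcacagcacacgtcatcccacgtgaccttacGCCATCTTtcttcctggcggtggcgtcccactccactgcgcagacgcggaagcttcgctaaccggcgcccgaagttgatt
Mrpl14, GRCm38.p6 chr17:45686099-45686398, + strand: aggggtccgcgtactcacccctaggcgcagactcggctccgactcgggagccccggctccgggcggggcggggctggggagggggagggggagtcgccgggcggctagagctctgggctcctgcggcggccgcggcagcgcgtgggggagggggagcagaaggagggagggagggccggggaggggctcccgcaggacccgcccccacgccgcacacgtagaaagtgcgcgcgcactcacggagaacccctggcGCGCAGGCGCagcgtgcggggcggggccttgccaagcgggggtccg
The windows of Mrps17 and of Mrpl20, which rose, held no match to these letters. A match is a run of letters and not a measured binding site.

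Other genes of mitochondrial translation were taken from lists of the pathway. Of proteins of the mitochondrial ribosome listed under other symbols 4 were measured and 0 were called with limma, with 2, 0 and 2 at an unadjusted p under 0.05 in the 3 comparisons. The shares over all genes were 10.6%, 0% and 13.3% called, and 25.9%, 6.65% and 27.3% at an unadjusted p under 0.05. Dap3, a GTP-binding protein of the small subunit, read 3455 with DMSO, 4323 and 3786 with vemurafenib, and 3912 and 3619 with PLX7904. Ptcd3, which guides messages into the small subunit, read 2129, 1849 and 1827, and 2153 and 2100 in the same order (log2 -0.21 between the compounds, SE 0.08, adjusted p = 0.106, limma). Both vemurafenib arrays were low for Ptcd3.

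Of 26 tested genes listed as assembly and ribosomal RNA modification factors, 4 were lower and 0 higher with vemurafenib than with DMSO, at a median of -0.14, beside 5.21% of all genes called as lower and a median of -0.05. Most of the list had mean signals of 217 to 663. Over all genes in that range the median was -0.11, and 9.73% were called in either direction. Gtpbp10, a GTPase of large-subunit assembly, was 1.46 times lower (762 with DMSO, 476 and 566 with vemurafenib, log2 -0.55, SE 0.14, adjusted p = 0.0366, limma), and Fastkd2, an RNA-binding protein of the same process, 1.37 times lower (1897 against 1444 and 1332, adjusted p = 0.0316, limma). Tfb1m, which methylates the small ribosomal RNA, was also lower (455 against 302 and 302, log2 -0.59, adjusted p = 0.0373, limma). The remaining call, Mdn1, is an ATPase of cytosolic ribosome assembly that does not belong to the mitochondrial pathway. Between the compounds 1 of the 26, Gtpbp10, was lower with vemurafenib (log2 -0.42, SE 0.12, adjusted p = 0.0398, limma), while 6.87% of all genes were called as lower. The list's median was -0.12, beside -0.04 over all genes and -0.07 over those with mean signals of 217 to 663.

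Of 13 tested translation factors 0 were called in any comparison with limma, and 1, 0 and 3 had an unadjusted p under 0.05. Over all genes tested 10.6%, 0% and 13.3% were called, and 25.9%, 6.65% and 27.3% had an unadjusted p under 0.05. Tufm, the elongation factor that brings transfer RNA to the ribosome, read 1519 with DMSO, 1404 and 1425 with vemurafenib, and 1480 and 1283 with PLX7904. Of 16 mitochondrial aminoacyl-tRNA synthetases 0 were called either, with 1, 0 and 2 at an unadjusted p under 0.05. In lists this short, 0 calls do not show an absence of change. Of 17 genes of mitochondrial DNA maintenance and transcription 13 lay below 0 for vemurafenib against DMSO and 13 against PLX7904. Over all 10852 genes tested, 6273 and 6078 lay below 0. The list had medians of -0.15 and -0.11, beside -0.05 and -0.04 over all genes. Genes with mean signals of 217 to 663, where part of the list lies, had medians of -0.11 and -0.07. The rest of the list was brighter. Genes with mean signals of 665 to 1870 had medians of -0.05 and -0.03, and those of the top quartile 0.05 and 0.01. Of the 17, 0 were called as lower with limma, beside 5.21% and 6.87% of all genes. Counting both directions, 5 had an unadjusted p under 0.05 in each of these comparisons, beside 25.9% and 27.3% of all genes. For vemurafenib against DMSO these 5 included Ssbp1, which lay above 0. For PLX7904 against DMSO 4 had such a p, beside 6.65% of all genes. The single call was Ssbp1, which was higher with vemurafenib than with DMSO (7621 against 9120 and 9782, log2 0.31, SE 0.07, adjusted p = 0.0254, limma). It encodes the protein that coats single-stranded mitochondrial DNA, and the PLX7904 arrays, at 9393 and 9431, were as high. Polrmt, the mitochondrial RNA polymerase, read 1481 with DMSO, 1090 and 1103 with vemurafenib, and 1237 and 1534 with PLX7904, and did not pass (log2 -0.43, SE 0.13, adjusted p = 0.0680, limma).

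Among 12 tested regulators of mitochondrial genes, Ppargc1b, a coactivator of nuclear receptors and NRF1, was lower with vemurafenib at a low signal. It read 174 with DMSO, 87.4 and 78.0 with vemurafenib, and 140 and 197 with PLX7904. The log2 difference was -1.05 from DMSO (SE 0.30, adjusted p = 0.0498, limma) and -0.98 from PLX7904 (SE 0.24, adjusted p = 0.0238, limma), while the other 11 were not called. Nrf1 (log2 0.12 between the compounds, SE 0.13), Gabpa (0.05, SE 0.08) and Yy1 (0.21, SE 0.08, adjusted p = 0.102, limma) were among those. Against DMSO, Gabpa read -0.32 with vemurafenib and -0.36 with PLX7904 (SE 0.10 for both). In the same order Nrf1 read 0.33 and 0.21 (SE 0.16), and Yy1 0.24 and 0.03 (SE 0.10). All of these values rest on the same DMSO array, and none passed. Ppargc1a read 4.33 to 33.7 and was below the filter. Over all genes tested 5.21% were called as lower with vemurafenib than with DMSO and 6.87% than with PLX7904.

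Of 22 genes of mitochondrial protein import, Timm17a was higher (log2 0.21, SE 0.06) and Timm8a1 lower (-0.22, SE 0.06) with vemurafenib than with PLX7904. Over all genes tested 6.43% were called as higher and 6.87% as lower there. Against DMSO 0 import genes were called with vemurafenib or with PLX7904, beside 10.6% and 0% of all genes. At an unadjusted p under 0.05 (limma) were 4 and 3 of them, beside 25.9% and 6.65% of all genes. Of 45 nuclear-coded subunits of oxidative phosphorylation, the complexes that hold the products of the mitochondrial ribosome, 1 was higher with vemurafenib than with DMSO (Atp5c1, log2 0.28, SE 0.07) and 1 lower with vemurafenib than with PLX7904 (Ndufs7, -0.26, SE 0.07). The all-gene shares of such calls were 5.43% and 6.87%. In the 3 comparisons 11, 10 and 4 of the 45 had an unadjusted p under 0.05 (limma), beside 25.9%, 6.65% and 27.3% of all genes. Above 0 lay 28, 39 and 16 of the 45, beside 4579, 5084 and 4774 of the 10852 genes tested. Both comparisons with DMSO rest on the same DMSO array. The median of the 45 was 0.08, 0.09 and -0.04 in the 3 comparisons, and that of import genes 0.08, 0.05 and 0.03. Over all genes tested it was -0.05, -0.01 and -0.04, and over the top quartile of signal 0.05, 0.03 and 0.01.

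**Figure D5:**
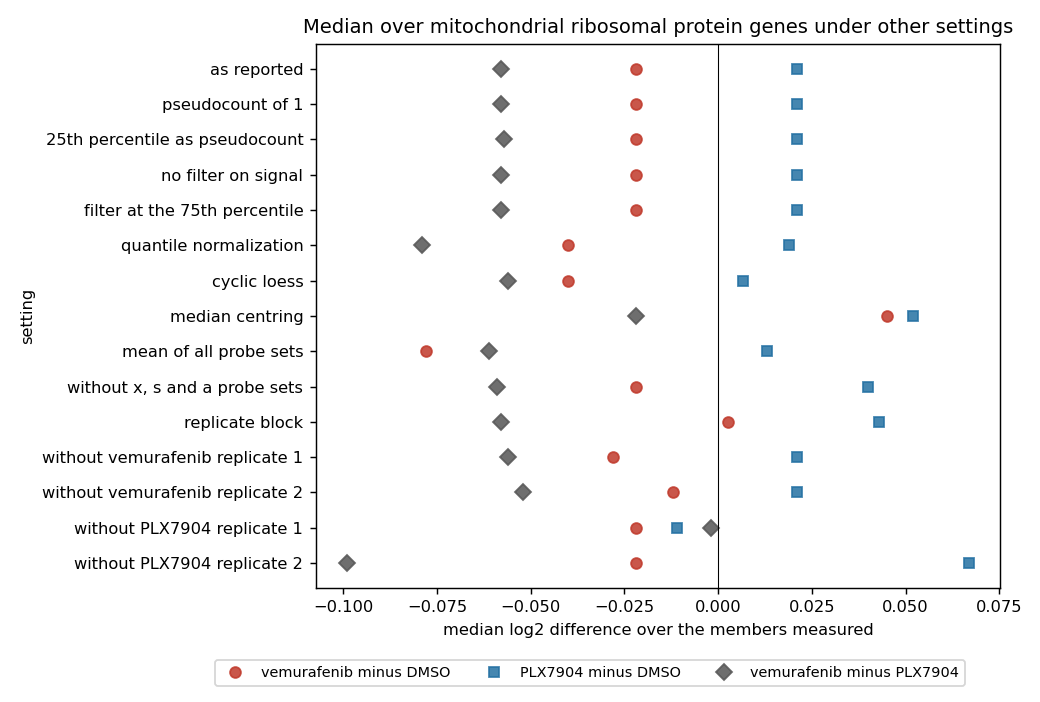
Points give the median log2 difference over the members measured in each of the 3 comparisons (x axis) under each setting of the processing (y axis). All medians lie between -0.099 and 0.067, and the largest moves come from leaving out a PLX7904 array, from median centring and from averaging all probe sets of a gene.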

How the data were processed

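RNA of 5 B9 cultures was measured on Affymetrix 3′ arrays, 1 per culture. The authors deposited 1 intensity per probe set and array on a linear scale, made with MAS5 per the submitters' processing notes with no version stated in the sources used here. On every array the middle 96% of values had a mean of 500. No detection calls were used. Names came from the platform annotation: 34945 probe sets had 1 symbol, 932 several, 9160 none, and 64 were controls. All 76 members matched the RefSeq table (GRCm38.p6) by gene ID with 0 symbols changed.

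The pseudocount was the 10th percentile of all values and the filter their median. The 3 group means were fitted to all arrays with limma 3.58.1 (R 4.3.3), letting the prior variance follow intensity. Residual degrees of freedom were 2 and prior ones 8.27. The lone DMSO array takes its variance from the treated arrays. Tests were two-sided, adjusted over 10852 genes per comparison, and the fit was tested on simulated data. Lists were described by counts and medians, without a set test.

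The members and lists were chosen with earlier results of these data known. Members named were those called, the 4 highest and lowest per comparison, the 4 brightest and dimmest, the Mrps18 family, Mrps30, stalk proteins, and those whose probe sets differed by over 0.5; the text gives part of them. From each pathway list it took called genes, or the brightest and most changed, plus genes chosen for their role after their values were seen, as was the member Mrps36. Alternatives changed the pseudocount, filter, normalization, probe set, variance model, replicate block and arrays. Promoter sequences are from RefSeq (GRCm38.p6). Plots used matplotlib 3.10.9 under Python 3.11.15.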

Additional observations from a re-analysis of the deposited data

How the results depend on the processing

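Counts of called members moved most. For vemurafenib against DMSO the count of 1 became 0 without the filter on signal, with the mean of all probe sets, without probe sets with the suffix x, s or a (60 members left) and without the intensity trend, 2 with median centring or robust fitting, 3 with the filter at the 75th percentile and 5 at an adjusted p under 0.1. Leaving out an array gave 0 to 3. For PLX7904 against DMSO the count was 0 under every setting run and with each treated array left out, but so few genes passed there at all (0 to 29 of all tested) that these counts say nothing about stability. For vemurafenib against PLX7904 the count of 5 became 1 without the filter, 0 with median centring or without the trend, and 3 with the mean of all probe sets or without the suffixed ones. It became 6 after quantile normalization or cyclic loess and 7 at an adjusted p under 0.1. Leaving out an array gave 0 to 3.

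The members' median for vemurafenib against DMSO was 0.045 with median centring, -0.078 with the mean of all probe sets and 0.0027 with the replicate block, and -0.028 to -0.012 with an array left out. For PLX7904 against DMSO it was 0.052 with median centring and 0.043 with the block, and -0.011 to 0.067 with an array left out. Between the compounds it was -0.079 after quantile normalization and -0.022 with median centring, and -0.099 to -0.0019 with an array left out. The large minus small difference for vemurafenib against DMSO was 0.0088 with Mrps30 and Mrps18a moved, -0.035 after cyclic loess, -0.075 with the mean of all probe sets and -0.054 without suffixed ones (-0.028 to -0.014 with an array left out). For PLX7904 against DMSO it was -0.020 without suffixed probe sets (-0.018 to 0.018 with an array left out), and between the compounds -0.0065 with the mean of all probe sets and -0.014 without suffixed ones (-0.034 to 0.011 with an array left out). The causes were not tested. Mrpl1, at 0.11 between the compounds, turned to -0.60 (adjusted p = 0.0208, limma) without suffixed probe sets, which leaves a dimmer one with a mean signal of 247.

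With the replicate number as a block the counts of called members were 1, 0 and 5, and the called genes were the same in both comparisons with calls. Deviations of same-numbered arrays of the compounds correlated at r = -0.01 over all genes tested and -0.25 over the 76 members. Whether same-numbered cultures were handled together cannot be told from these values or from the labels. Of 1694 values of named members under other settings, 1643 kept their side of the threshold, 39 lost a call, 11 gained one and 1 reversed. Most of these values belonged to members not called in that comparison, which had no call to lose. Each of the 6 calls ended under 5 to 8 of 15 to 17 other settings. The DMSO group has 1 array, which could not be left out, and signals of dim probe sets carry no statement on background.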

Other observations

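Probe sets of a member did not always read alike. Of 76 members, 42 had several probe sets and 34 had several past the filter, and for 12 of these the probe sets differed by over 0.5 log2 units in a comparison. In the ones given here the dimmer probe sets held the larger differences. For Mrpl57, a short mitochondria-specific protein, the bright probe set (mean signal 3850) read -0.09 between vemurafenib and PLX7904 and a much dimmer one read -0.91. Averaging both called Mrpl57 as lower (log2 -0.50, adjusted p = 0.0370, limma). For Mrpl11, of the stalk base, 4 probe sets past the filter ran from -1.11 to -0.05 in the same comparison. For Mrpl3 they ran from -0.26 to 0.61, and for Mrps9, a small-subunit protein, from -0.56 to 0.29 for vemurafenib against DMSO. No explanation of these gaps was tested.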
